A study of Mus musculus with 12 samples.

Results

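The genes described here are 42 genes of the Nrf2 antioxidant response and of glutathione metabolism, a list chosen by gene function that covers the regulators, the enzymes that make and use glutathione, thioredoxin enzymes, NADPH suppliers, detoxifying enzymes, ferritins and efflux pumps. They were followed in colonic organoids, mouse crypt epithelium grown in Matrigel under conditions that favour stem cells. A probe was found for 41 of the 42, 59 probes in all, among 55681 probes on the array. Gsta1 was not matched and has no value here. All 41 were tested, among 24245 genes in the whole table, a count that includes transcripts without a gene symbol. Of the 41, 40 gave signal well over background on every one of the 12 arrays. Gpx3, a secreted glutathione peroxidase, was above background on 2 of 3 arrays of wild-type vehicle cultures and on all other arrays.

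The cultures came from 6 mice of the C57BL/6 strain. The groups were wild-type (wt) organoids given 1,25(OH)2D3, called calcitriol here, wt organoids given the ethanol vehicle, VDR KO organoids given calcitriol and VDR KO organoids given vehicle, with 3 arrays in each. Calcitriol was used at 100 nM and given again every 48 h. The duration is 72 h in one label and 62 h in another. Mice 1 and 3 of each genotype were 2 months old and mouse 2 was 3 months old. The labels call the knockout VDR KO and do not describe the allele. Each mouse gave a culture for calcitriol and a culture for vehicle, so the mouse is the unit of replication and a calcitriol effect can be taken within a mouse.

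Nrf2, the protein of Nfe2l2, is a transcription factor that the adaptor protein of Keap1 marks for degradation in unstressed cells. Oxidants and electrophiles modify the adaptor, Nrf2 builds up, and with small Maf partners it binds antioxidant response elements near genes for glutathione synthesis, NADPH supply and detoxification. Colonic epithelium faces bacterial products, bile acids and dietary electrophiles, and it carries a peroxidase of its own, the product of Gpx2. Calcitriol is the hormone form of vitamin D and acts through the vitamin D receptor, the product of Vdr.

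Levels below are log2 spot intensities relative to the 75th percentile of their own array, and a difference of 1 is a 2-fold change. The 3 values of a group follow the order mouse 1, mouse 2, mouse 3. Between 55.0% and 72.8% of spots were well above background per array. The vehicle array of wt mouse 2 had the highest share and stood apart at low signal, with a median signal of 89.8 against 24.7 to 56.9 on the others. Vdr lay at 1.06 or above on the wt arrays and at 0.61 or below on the knockout arrays, so the genotypes did not overlap. S100g, a calcium-binding protein gene induced by the hormone, lay at 7.32, 7.18 and 7.49 in wt calcitriol cultures and at -0.10, -0.46 and 0.07 in wt vehicle cultures, against -1.17, -0.88 and -1.08 in knockout calcitriol cultures and -0.97, -1.34 and -1.17 in knockout vehicle cultures. The Y-linked gene Ddx3y was between 0.82 and 0.99 on the arrays of mouse 2, which the labels give as female, and between -7.96 and -6.62 elsewhere, mouse 1 with its male label included. The sex labels were therefore not used. All 13 epithelial marker genes were above background on all 12 arrays, against 1 of 8 fibroblast, 4 of 8 immune and 3 of 4 endothelial markers. The fibroblast markers Lum and Pdgfra were above background on no array, while Vim was on all 12. Col1a2, Acta2, Col1a1, Col3a1 and Dcn were above it on 11, 9, 7, 6 and 1 arrays. Among the immune markers Ptprc, Lyz2 and Adgre1 were above it on 6, 3 and 5 arrays, while Itgam, Cd68, Cd3e and Cd74 were on all 12, as were the endothelial markers Kdr, Vwf and Pecam1, with Cdh5 on 1. The summed log2 level of the immune list was 3.59 to 4.70 and that of the endothelial list 2.26 to 3.37. There were 3 slides, holding 2, 3 and 7 of the arrays. All 3 wt calcitriol arrays and 1 wt vehicle array shared the largest slide, and the other 2 wt vehicle arrays were on another, so slide and treatment overlap. Only wt mouse 3 had both of its arrays on the same slide.

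In wt organoids, calcitriol against vehicle asks whether the hormone shifts these genes where its receptor is present. Gsta3, a glutathione transferase, fell 2.06-fold on average and was lower in all 3 mice. It was the only member to pass the test over all genes, which it did when the mouse was a block. Of the 41 members, 29 lay below 0 and 12 above, with a median of -0.08, while 43.7% of all genes lay above 0 with a median of -0.03. In limma without the mouse term, 0 members passed an adjusted p of 0.05, where 0.157% of all genes did, and 2 members had an unadjusted p under 0.05, where 4.68% of all genes had one. With the mouse as a block, 1 member passed, where 0.936% of all genes did. At an unadjusted p under 0.05 the block gave 12 members lower and 2 higher, where 6.22% and 3.72% of all genes were lower and higher. In all 3 mice 18 members lay lower with calcitriol and 4 lay higher, where 18.5% and 15% of all genes did so. The differences were small, with 25 of the 41 members within 0.2 of 0 on the log2 scale. The lean toward lower levels was lost with the slide as a block or without the vehicle array of wt mouse 1, where 20 members lay above 0 and 21 below.

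**Figure D1:**
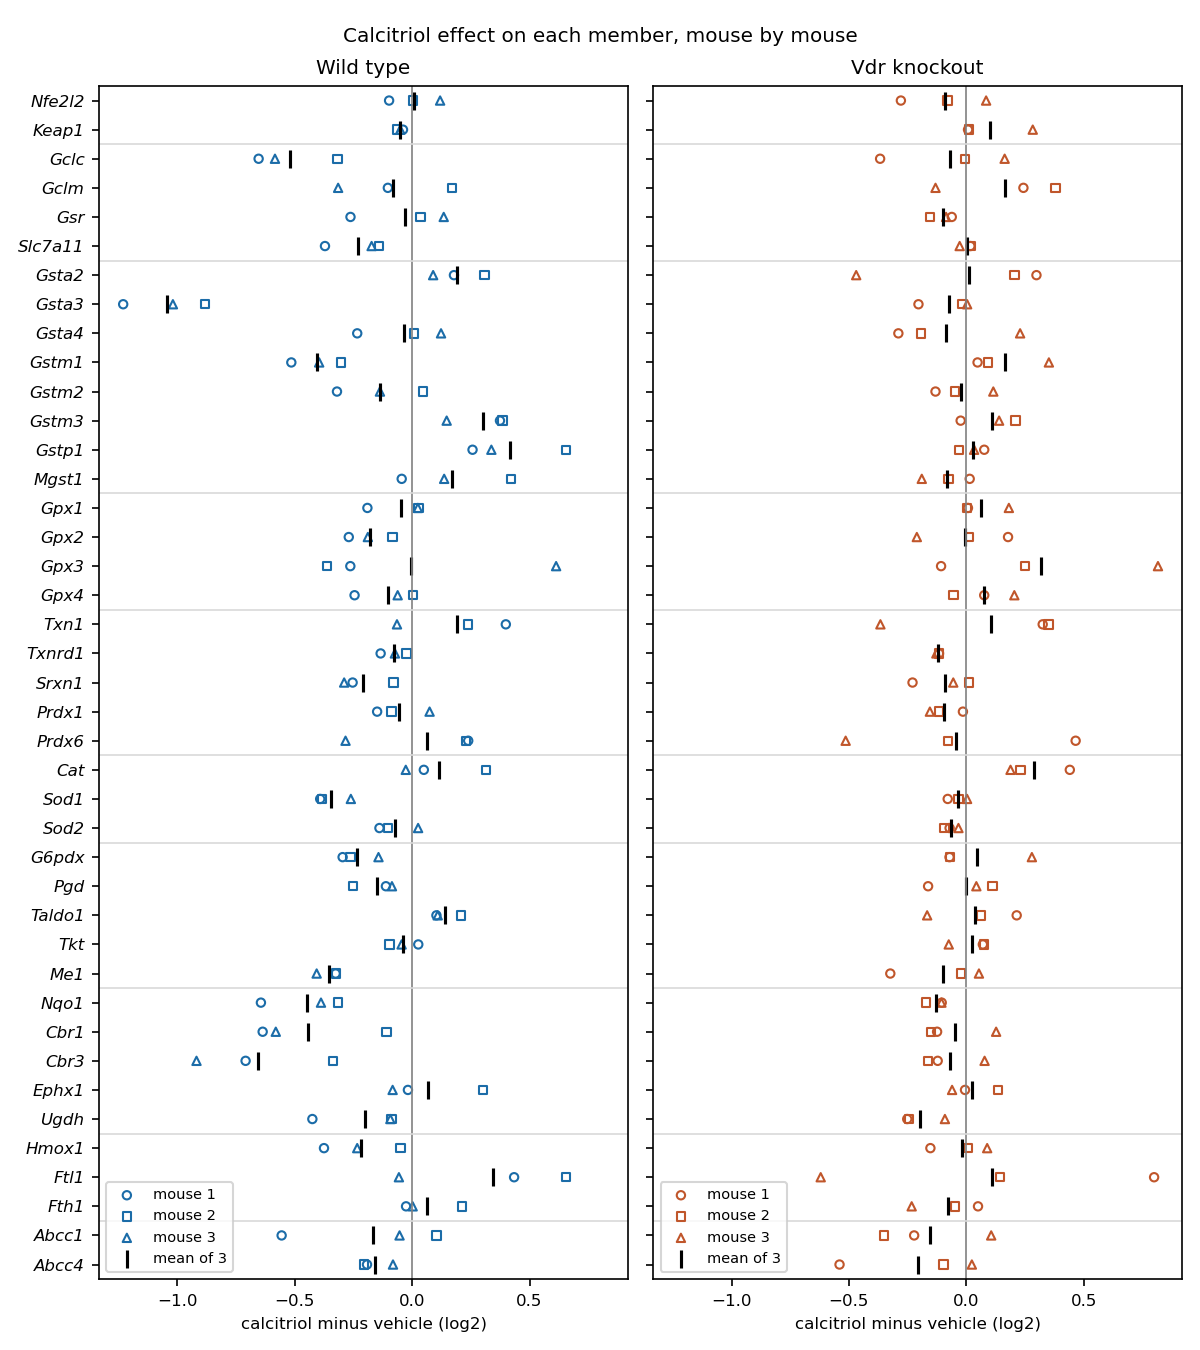
Calcitriol minus vehicle on the log2 scale (x axis) for each of the 41 members (rows, grouped by role) in wild-type (left) and knockout (right) organoids. Open symbols are mice 1 to 3 and the black bar is their mean; the 3 wild-type mice of Gsta3 lie between -1.23 and -0.88, away from the 3 knockout mice, which lie between -0.20 and 0.00.

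Gsta3 encodes an alpha-class glutathione transferase, an enzyme that joins glutathione to electrophiles. It had 3.34, 2.04 and 1.85 in wt calcitriol cultures, against 4.57, 2.93 and 2.87 in wt vehicle cultures. The levels of the groups overlapped, because mouse 1 was far above mice 2 and 3 under both treatments, but each mouse was lower with calcitriol, with differences of -1.23, -0.88 and -1.02 from its own vehicle culture. The mean was 2.41 ± 0.81 in calcitriol and 3.46 ± 0.97 in vehicle (SD, n = 3), a difference of -1.04 or a 2.06-fold lower level. It did not pass without the mouse term (SE 0.55, limma adjusted p = 0.988) and passed with the mouse as a block (SE 0.089, limma adjusted p = 0.00204). The blocked call was kept when any 1 mouse of either genotype was left out, with adjusted p from 0.000807 to 0.0276. The second Gsta3 probe gave a mean difference of -1.03 and also passed with the block (limma adjusted p over probes = 0.00851). With the slide as a block and no mouse term the difference was -0.80 (limma adjusted p = 1), and on the largest slide alone, which holds 1 wt vehicle array, it was -0.45. Wt mouse 3, with both arrays on that slide, gave -1.02. Without the mouse term, the value without the vehicle array of wt mouse 1 was -0.49. With each array scaled to its median it was -0.54, where the median of all genes was 0.48.

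The promoter of Gsta3 is shown because Gsta3 is the only member to pass a test and because its promoter holds the antioxidant response element core. RefSeq lists 1 promoter for the gene on GRCm38.p6, and the 250 bases before its start lie on the plus strand at chr1:21240335-21240584. Capitals mark the core, TGACNNNGC, with 112 bases between its end and the start.
Gsta3: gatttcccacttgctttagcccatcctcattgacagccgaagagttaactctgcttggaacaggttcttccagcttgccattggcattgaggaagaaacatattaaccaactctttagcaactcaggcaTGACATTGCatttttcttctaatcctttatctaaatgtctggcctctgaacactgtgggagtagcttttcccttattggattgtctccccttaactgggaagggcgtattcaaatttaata
A promoter entry was found for 36 of the 42 members. The core TGACNNNGC was searched on both strands of the 300 bases from 250 before to 50 after each start. It was found in 13 of the 36 members, 36.1%, and in 14% of all 27025 genes with an entry. A match is a run of letters and was not tested for binding. Other members given array by array below that hold the core wholly before their start are shown for comparison, a set chosen after its values were seen, with 10 bases on each side, each read along the strand on which the core reads TGACNNNGC.
Nfe2l2, chr2:75704885-75704913, minus strand: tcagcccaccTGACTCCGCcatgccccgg
Gclm, chr3:122245413-122245441, minus strand: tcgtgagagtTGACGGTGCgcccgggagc
Txnrd1, chr10:82859104-82859132, minus strand: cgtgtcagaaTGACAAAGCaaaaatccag
Prdx1, chr4:116685456-116685484, minus strand: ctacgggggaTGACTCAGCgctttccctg
Sod1, chr16:90220696-90220724, minus strand: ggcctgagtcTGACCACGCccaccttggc
G6pdx, chrX:74428919-74428947, plus strand: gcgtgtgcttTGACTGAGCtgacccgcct
Ugdh, chr5:65435918-65435946, plus strand: ccgaactgtaTGACCACGCcccttgagga
Ugdh, chr5:65435956-65435984, minus strand: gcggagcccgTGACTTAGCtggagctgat
Abcc4, chr14:118676936-118676964, minus strand: aataatctcgTGACTCTGCcgtggtggat
Abcc4, chr14:118706226-118706254, plus strand: cggcccgcccTGACCCCGCctctcggggc
Among these windows only the one of Prdx1 also contains the AP-1 site TGACTCA, which overlaps its core. AP-1 sites were in 4 of the 36 members and in 5.95% of all genes. The vitamin D response element of the DR3 type, searched by its usual consensus in the same windows, was in 0 of the 36 members and in 0.0444% of all genes, which says only that this consensus is not in these 300 bases.

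The directions of the 8 measured glutathione transferases were mixed, with 4 above 0 and 4, Gsta3 among them, below. Gstp1, the pi-class transferase, had 6.44, 6.43 and 6.26 in wt calcitriol cultures, against 6.19, 5.78 and 5.93 in wt vehicle cultures. All 3 calcitriol values were above all 3 vehicle values. The difference was 0.42 (SE 0.16), with the smallest p of the members in the fit without the mouse term, and it did not pass (limma adjusted p = 0.988, and 0.132 with the block). Knockout cultures had 6.44, 5.88 and 6.10 with calcitriol and 6.36, 5.91 and 6.07 with vehicle, with no steady direction. Gstm1, a mu-class transferase named after its values were seen, had 4.23, 3.59 and 3.43 in wt calcitriol cultures, against 4.74, 3.90 and 3.83 in wt vehicle cultures. Each mouse was lower with calcitriol, and the mean difference of -0.40 did not pass with the block (limma adjusted p = 0.109). It passed only in the blocked fit without knockout mouse 3 (limma adjusted p = 0.0416), with the same difference. There 1.49% of all genes passed, against 0.936% with all mice. A second Gstm1 probe gave -0.71 and did not pass over probes (limma adjusted p = 0.0785 with the block). Gsta2, Gsta4, Gstm2, Gstm3 and Mgst1, the other transferases measured, lay between -0.14 and 0.30. Because several Gsta and Gstm genes are close in sequence and the probe sequences were not used here, signal shared between these genes cannot be told apart.

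**Figure D2:**
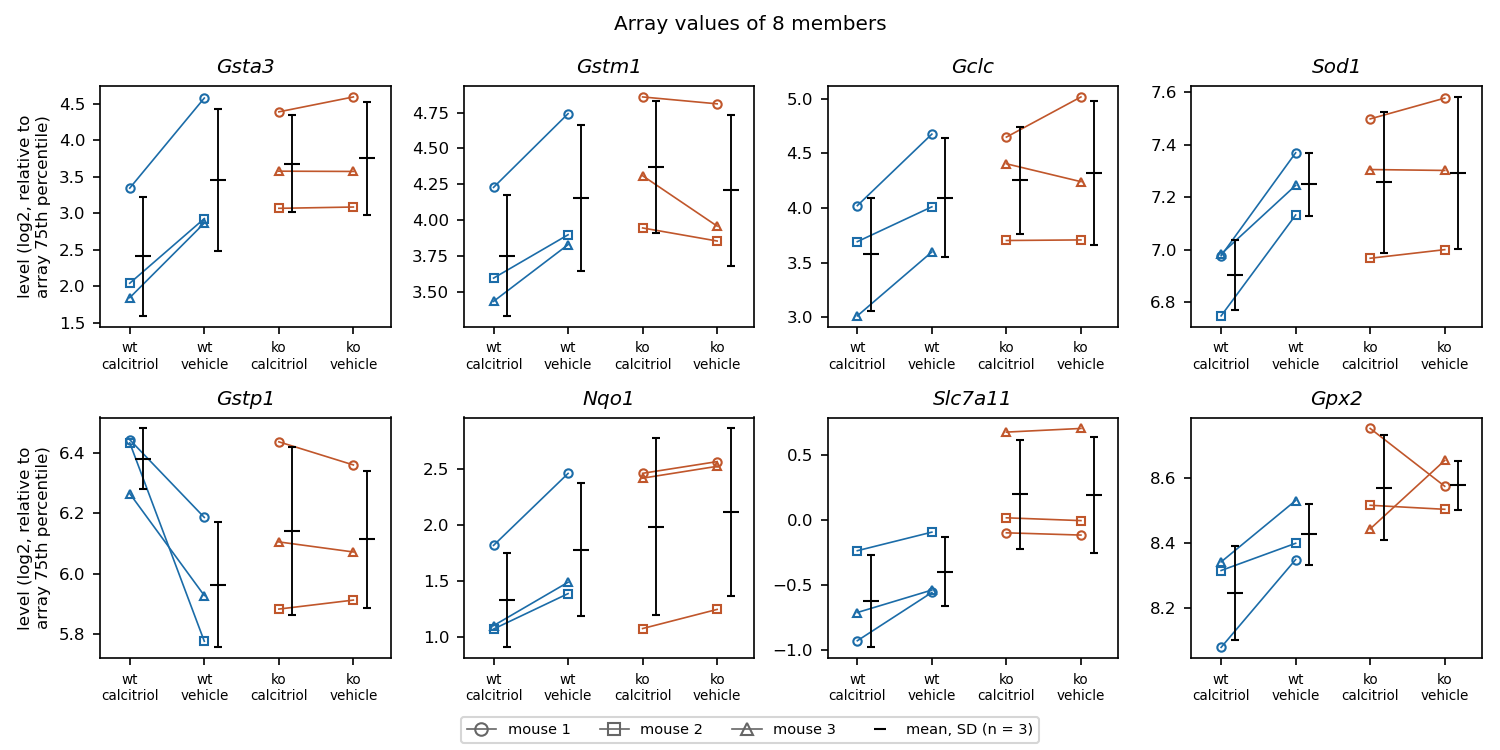
Log2 levels relative to each array's 75th percentile (y axis) for 8 members in the 4 groups (x axis), with symbols for mice 1 to 3, lines joining the 2 cultures of a mouse, and black bars for the mean and SD (n = 3). Gsta3, Gstm1, Gclc and Sod1 are lower with calcitriol in each wild-type mouse, Gstp1 is higher in each, and the offset of mouse 1 in Gsta3 is as wide as the treatment effect.

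The 4 members for glutathione synthesis and supply all lay below 0 in wt cultures, and none passed. Gclc, the catalytic subunit of glutamate-cysteine ligase, had 4.02, 3.69 and 3.01 in wt calcitriol cultures, against 4.68, 4.01 and 3.60 in wt vehicle cultures. Each mouse was lower with calcitriol, though mice differed more than treatments. The difference was -0.52 (SE 0.38, limma adjusted p = 0.995, and 0.124 with the block). It passed only in the blocked fit without knockout mouse 3 (limma adjusted p = 0.0460), with the same difference. There 1.49% of all genes passed, against 0.936% with all mice. Gclm, the modifier subunit of the same ligase, had 2.25, 1.50 and 1.09 in wt calcitriol cultures, against 2.35, 1.33 and 1.40 in wt vehicle cultures. Its mice went in different directions, and the difference was -0.08 (limma adjusted p = 1). Slc7a11, the antiporter that brings in cystine, had -0.93, -0.23 and -0.71 in wt calcitriol cultures, against -0.55, -0.09 and -0.54 in wt vehicle cultures. Each mouse was lower with calcitriol, with a difference of -0.23 that did not pass (limma adjusted p = 1, and 0.502 with the block).

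The regulators themselves differed by little. Nfe2l2 had 5.37, 5.03 and 5.48 in wt calcitriol cultures, against 5.47, 5.03 and 5.36 in wt vehicle cultures, and the groups overlapped with a difference of 0.01 (SE 0.0907 with the block, limma adjusted p = 0.978). Keap1 had 2.72, 2.52 and 2.63 in wt calcitriol cultures, against 2.76, 2.59 and 2.68 in wt vehicle cultures. The differences within wt mice were all slightly below 0, with a mean of -0.05 (limma adjusted p = 0.804 with the block). RNA levels do not measure the stability of the Nrf2 protein, which is where Keap1 acts.

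The enzymes of quinone, carbonyl and epoxide detoxification had the lowest median of the roles, -0.44, with 4 of 5 members below 0 and none passing. Nqo1, the quinone reductase most often used as a readout of Nrf2, had 1.82, 1.07 and 1.10 in wt calcitriol cultures, against 2.46, 1.39 and 1.49 in wt vehicle cultures. Each mouse was lower with calcitriol, while mouse 1 was higher than mice 2 and 3 in both cultures. The difference was -0.45 (SE 0.45, limma adjusted p = 1, and 0.0773 with the block). Cbr3, a carbonyl reductase named after its values were seen, had 6.15, 3.71 and 4.32 in wt calcitriol cultures, against 6.86, 4.05 and 5.23 in wt vehicle cultures. Each mouse was lower, with differences of -0.71, -0.34 and -0.92, and the mean of -0.66 lay just outside the threshold with the block (limma adjusted p = 0.0517). It passed in the blocked fit after quantile normalization (0.0443), after another background correction (0.0331) and without knockout mouse 3 (0.0250). In these fits 1.05%, 1.08% and 1.49% of all genes passed, against 0.936% in the main blocked fit. Without knockout mouse 3 the difference was unchanged.

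Sod1 and G6pdx were among the members with the smallest p. Sod1, the cytosolic superoxide dismutase, had 6.98, 6.75 and 6.98 in wt calcitriol cultures, against 7.37, 7.13 and 7.24 in wt vehicle cultures. All 3 calcitriol values lay below all 3 vehicle values, with a difference of -0.35 (SE 0.16, limma adjusted p = 0.988, and 0.132 with the block). G6pdx, the enzyme that opens the pentose phosphate pathway and so supplies NADPH, had 4.52, 4.66 and 4.74 in wt calcitriol cultures, against 4.81, 4.92 and 4.88 in wt vehicle cultures. These groups did not overlap either, with a difference of -0.23 (SE 0.11, limma adjusted p = 0.988). Groups that did not overlap were found for 4 members lower and 2 higher with calcitriol, where 4.35% and 4.86% of all genes had them. The other 2 lower members were Gpx2 and Abcc4, and the higher ones were Gstp1 and Taldo1.

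Of the thioredoxin members, 3 of 5 lay below 0, and none passed. Txnrd1, thioredoxin reductase, had 5.32, 5.26 and 5.29 in wt calcitriol cultures, against 5.46, 5.29 and 5.36 in wt vehicle cultures, with a difference of -0.08 (limma adjusted p = 0.666 with the block). Srxn1, sulfiredoxin, which repairs overoxidised peroxiredoxins, had 4.84, 4.68 and 4.60 in wt calcitriol cultures, against 5.09, 4.75 and 4.89 in wt vehicle cultures. Both genes were lower with calcitriol in each mouse, by small amounts, and the mean for Srxn1 was -0.21 (limma adjusted p = 0.464 with the block). Hmox1, heme oxygenase, had 2.64, 3.03 and 2.54 in wt calcitriol cultures, against 3.02, 3.08 and 2.77 in wt vehicle cultures, with each mouse lower and a mean difference of -0.22 (limma adjusted p = 0.475 with the block).

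The 4 glutathione peroxidases all lay below 0 in wt cultures, with Gpx2 the lowest at -0.18, and 4 of the 5 NADPH suppliers did, with a median of -0.15. Of the 3 heme and iron genes, both ferritins lay above 0. Abcc1 and Abcc4, the pumps that export glutathione conjugates and other anions, gave -0.17 and -0.16. None of these passed.

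The levels of some cell type markers also differed in the same cultures. The summed log2 level of 4 stem cell markers was 5.02 to 5.18 in wt calcitriol cultures and 5.51 to 5.81 in wt vehicle cultures, with a median difference of -0.46 and all 4 above background on all 12 arrays. That of 7 goblet cell markers was 7.13 to 8.0 in wt calcitriol cultures and 6.64 to 7.75 in wt vehicle cultures, with a median difference of 0.48 and overlapping groups. That of 5 tuft cell markers was -2.84 to -2.65 in wt calcitriol cultures and -2.66 to -0.64 in wt vehicle cultures, with a median difference of -1.21 over the 4 that were tested, and 0 of the 5 were above background on all 12 arrays. The absorptive, enteroendocrine and proliferation lists had medians of -0.05, 0.15 and -0.06. No marker list was tested. Their part in the differences of the members was not tested either, and in these bulk samples fewer cells of a type and less RNA per cell cannot be told apart.

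In knockout organoids the same treatment asks what remains without the receptor. The members changed little there, with 17 above 0 and 24 below, a median of -0.02 against 0.03 for all genes, of which 55.2% lay above 0, and no member past 0.5 in either direction. No member passed an adjusted p of 0.05 in limma without or with the mouse as a block, where 0% of all genes did in both, and at an unadjusted p under 0.05 0 members passed without the block, where 5.62% of all genes did. With the block 1 was higher and 0 lower, where 5.34% and 2.77% of all genes were. Treated and vehicle groups overlapped for every member, where 5.89% of all genes lay higher and 1.63% lower without overlap. In all 3 mice 4 members were higher and 6 lower, where 14.7% and 13.7% of all genes were. Gsta3 had 4.39, 3.07 and 3.58 in knockout calcitriol cultures, against 4.59, 3.09 and 3.57 in knockout vehicle cultures. The 2 cultures of each knockout mouse lay close together, and the mean difference was -0.07 (SE 0.089 with the block, limma adjusted p = 0.783).

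Cat, catalase, had the smallest p of the members in knockout cultures, with 1.53, 1.09 and 1.49 with calcitriol, against 1.09, 0.86 and 1.30 with vehicle. Each mouse was higher with calcitriol, by a mean of 0.29 that did not pass (limma adjusted p = 0.922, and 0.573 with the block). In wt cultures Cat had 1.38, 1.08 and 1.33 with calcitriol, against 1.33, 0.77 and 1.35 with vehicle. A second, dimmer Cat probe gave the opposite sign in knockout cultures, -0.56, and 0.75 in wt cultures. Neither passed over probes (limma adjusted p = 0.759 and 0.629 with the block). Ugdh, which makes UDP-glucuronic acid, had 4.73, 4.35 and 5.24 in knockout calcitriol cultures, against 4.98, 4.60 and 5.33 in knockout vehicle cultures, each mouse lower by a mean difference of -0.20 (limma adjusted p = 0.573 with the block). Abcc4, an efflux pump of organic anions, had 3.17, 3.02 and 3.47 in knockout calcitriol cultures, against 3.71, 3.11 and 3.45 in knockout vehicle cultures, and mouse 1 accounted for most of the difference of -0.20. Prdx1, a peroxiredoxin, had 6.63, 6.79 and 6.85 in knockout calcitriol cultures, against 6.65, 6.91 and 7.01 in knockout vehicle cultures, a difference of -0.10 (limma adjusted p = 0.688 with the block).

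The Nrf2 target genes most often measured, and the regulators, overlapped between treatments in knockout cultures, and none passed. Nqo1 had 2.46, 1.07 and 2.42 in knockout calcitriol cultures, against 2.57, 1.25 and 2.53 in knockout vehicle cultures, each mouse lower by a mean difference of -0.13. Gclc had 4.65, 3.70 and 4.41 in knockout calcitriol cultures, against 5.02, 3.71 and 4.24 in knockout vehicle cultures, a mean difference of -0.07 with mice on both sides of 0. Slc7a11 had -0.10, 0.02 and 0.68 in knockout calcitriol cultures, against -0.11, -0.00 and 0.71 in knockout vehicle cultures. The 2 cultures of each knockout mouse were within 0.03 of each other for Slc7a11. Hmox1 had 3.05, 2.82 and 3.65 in knockout calcitriol cultures, against 3.20, 2.81 and 3.56 in knockout vehicle cultures, and Txnrd1 had 5.44, 5.21 and 5.79 with calcitriol, against 5.55, 5.33 and 5.92 with vehicle. Gclm had 2.79, 1.50 and 1.82 in knockout calcitriol cultures, against 2.54, 1.12 and 1.95 in knockout vehicle cultures, with mice 1 and 2 higher and mouse 3 lower. The direction thus varied between mice for the ligase subunits, while the thioredoxin reductase was slightly lower in each mouse. Srxn1 had 5.16, 4.43 and 5.40 in knockout calcitriol cultures, against 5.39, 4.42 and 5.46 in knockout vehicle cultures. Nfe2l2 had 5.19, 5.12 and 5.72 in knockout calcitriol cultures, against 5.46, 5.20 and 5.64 in knockout vehicle cultures, and Keap1 had 2.86, 2.54 and 2.86 with calcitriol, against 2.85, 2.53 and 2.58 with vehicle. The mean differences were -0.02 for Hmox1, -0.12 for Txnrd1, 0.16 for Gclm, -0.09 for Srxn1, -0.09 for Nfe2l2 and 0.10 for Keap1.

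The difference between the effects, wt minus knockout, is the test of whether the response differs by genotype. Gsta3 was again the only member to pass, with the block. Without the block 0 members passed, where 0.0289% of all genes did, and with the mouse as a block 1 passed, where 0.235% of all genes did. Of the 41 members, 16 lay above 0, where 41.1% of all genes did. At an unadjusted p under 0.05, 0 members passed without the block, where 3.37% of all genes did, and with it 7 were lower and 1 higher, where 5.14% and 2.72% of all genes were. Its difference of effects was -0.97, from per-mouse effects of -1.23, -0.88 and -1.02 in wt and -0.20, -0.02 and 0.00 in knockout organoids. The 3 wt mice lay below the 3 knockout mice with no overlap. It passed with the block (SE 0.126, limma adjusted p = 0.0351) and not without it (SE 0.78, adjusted p = 1). The blocked call ended when wt mouse 1, 2 or 3 was left out (0.165, 0.145 and 0.132) or knockout mouse 1 or 2 (0.0880 and 0.236), with the difference between -1.05 and -0.88. Without knockout mouse 3 it was just inside (0.0496). Without the block, the difference of effects was -0.41 without the vehicle array of wt mouse 1, -0.62 without the calcitriol array of knockout mouse 1 and -0.64 without the vehicle array of knockout mouse 2. On the largest slide alone it was -0.61, and with each array scaled to its median it was -0.18, where the median of all genes was 0.74. The second Gsta3 probe gave a difference of effects of -0.78 and did not pass over probes (limma adjusted p = 0.248 with the block).

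The same pattern of effects, each wt mouse below each knockout mouse, was seen for 9 of the 41 members, where 8.79% of all genes had it. Beside Gsta3 they were Keap1, Slc7a11, Gstm1, Sod1, G6pdx, Me1, Nqo1 and Cbr3, and for Me1, a malic enzyme that supplies NADPH, the groups all but touched. The reverse was seen for 1 member, Gstp1, where 5.58% of all genes had it. Gstm1 had effects of -0.51, -0.30 and -0.40 in wt mice and 0.05, 0.09 and 0.35 in knockout mice, on opposite sides of 0 as also for Keap1, where 2.43% of all genes had this pattern and 1.44% the reverse one, which no member had. Gstm1 had a difference of -0.57 that did not pass (limma adjusted p = 0.234 with the block). For Gstp1 the difference of effects was 0.39, for Sod1 -0.31 and for G6pdx -0.28, with blocked limma adjusted p of 0.579, 0.589 and 0.645 in that order. The differences of effects of the standard genes were -0.32 for Nqo1, -0.45 for Gclc, -0.25 for Gclm, -0.23 for Slc7a11, -0.20 for Hmox1, -0.12 for Srxn1, 0.04 for Txnrd1, 0.10 for Nfe2l2 and -0.15 for Keap1, and none of these passed.

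Knockout against wt in vehicle cultures asks whether these genes differ by genotype without added hormone. Most members lay higher in knockout cultures, 34 of 41, with a median of 0.15, while 43.6% of all genes lay above 0 with a median of -0.05. None passed without or with the replicate number as a block, where 0.00412% of all genes did in both. At an unadjusted p under 0.05, 0 passed without the block, where 8.65% of all genes did. With the block 6 members were higher and 1 lower, where 5.27% and 9.32% of all genes did. The vehicle arrays of mice 1 and 2 were on one slide for knockout and on another for wt, so slide and genotype overlap here. With the slide as a block 31 members lay above 0 with a median of 0.17. On the largest slide alone, with 1 array of each group, the median was 0.22. This lean depended on the scaling and on single arrays. After quantile normalization 24 of 41 members lay above 0 with a median of 0.04, and after normexp background correction 25 did with a median of 0.05. Without the vehicle array of wt mouse 2, the array that stood apart at low signal, the median was 0.03 with 27 members above 0, and without that of knockout mouse 1 it was 0.03 with 22 above 0. All 8 transferases, all 4 genes of glutathione synthesis and supply and all 5 thioredoxin members lay above 0 with the scaling used. Of the cell type marker lists in these cultures, the enteroendocrine one had a median difference of 0.74, with sums of 4.26 to 6.07 in knockout and 3.52 to 4.93 in wt. The tuft one had -1.64 over the 4 tested, with sums of -3.72 to -2.61 in knockout and -2.66 to -0.64 in wt. Tuft markers were dim, with 0 of 5 above background on all 12 arrays. The stem and goblet lists had medians of 0.13 and 0.03, and the part of these markers in the members' differences was not tested.

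Slc7a11 had -0.11, -0.00 and 0.71 in knockout vehicle cultures, against -0.55, -0.09 and -0.54 in wt vehicle cultures, a difference of 0.59 (SE 0.28, limma adjusted p = 0.587, and 0.319 with the block). Mice of the same number were each higher in the knockout, and the groups overlapped only through wt mouse 2 and knockout mouse 1. Fth1 and Ftl1, whose proteins form the ferritin shell that stores iron, came next by p. Fth1 had 7.80, 7.72 and 7.72 in knockout vehicle cultures, against 7.61, 7.51 and 7.41 in wt vehicle cultures, with no overlap and a difference of 0.24 (limma adjusted p = 0.587, and 0.318 with the block). Fth1 was the only member whose vehicle groups did not overlap, where 2.9% of all genes were higher and 5.51% lower in that way. In all 3 number pairs 14 members were higher and 2 lower in the knockout, where 16.4% and 24.8% of all genes were. Ftl1 had 7.82, 8.03 and 8.54 in knockout vehicle cultures, against 7.68, 7.56 and 8.07 in wt vehicle cultures, with knockout mice 1 and 2 below wt mouse 3 and a difference of 0.36 (limma adjusted p = 0.649). Its second probe gave -0.17 for calcitriol in wt cultures, where the probe used gave 0.34, and neither passed. Ugdh had 4.98, 4.60 and 5.33 in knockout vehicle cultures, against 4.83, 4.35 and 4.61 in wt vehicle cultures, with each knockout mouse above the wt mouse of its number and a difference of 0.38 (limma adjusted p = 0.663).

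For the standard genes in vehicle cultures the differences, knockout minus wt, were 0.33 for Nqo1, 0.23 for Hmox1, 0.23 for Gclc, 0.18 for Gclm, 0.23 for Txnrd1, 0.18 for Srxn1, 0.15 for Nfe2l2 and -0.02 for Keap1, and Gsta3 gave 0.29. None of these passed, and their standard errors ran from 0.13 for Keap1 to 0.55 for Gsta3.

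**Figure D3:**
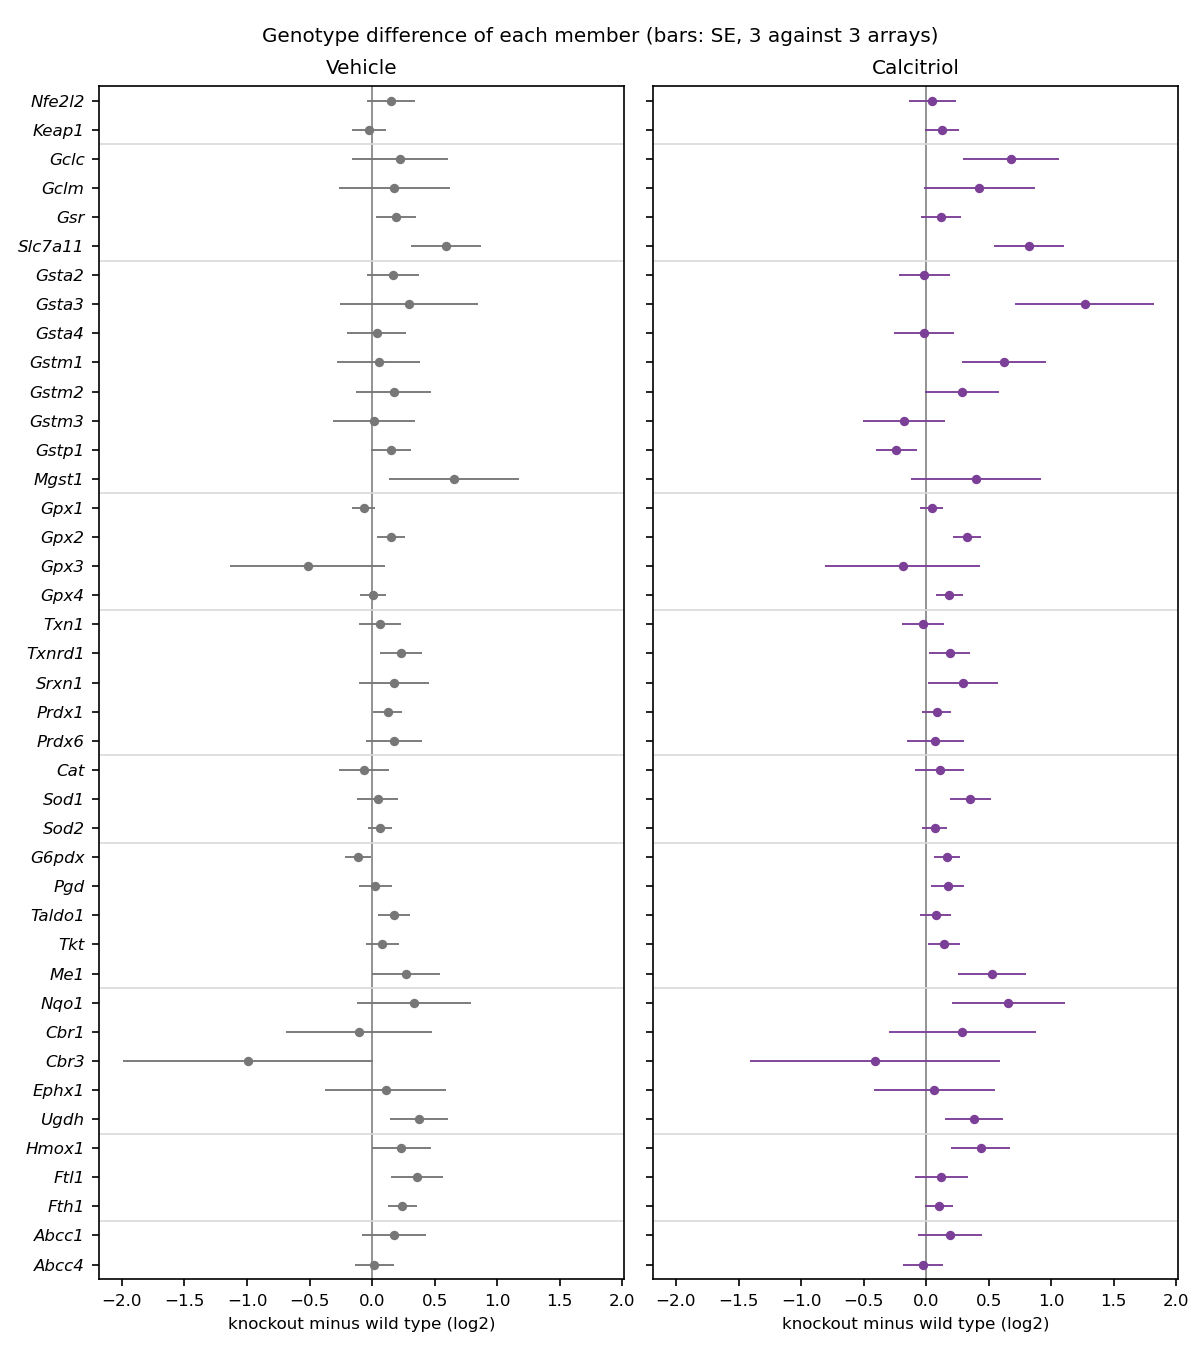
Knockout minus wild type on the log2 scale (x axis) for each member (rows, grouped by role) in vehicle (left) and calcitriol (right) cultures, with bars for the SE of the fit on 12 arrays. In vehicle 34 of 41 points lie right of 0 and in calcitriol 33 of 41 do, and Cbr3 has the widest bars in both.

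In calcitriol cultures the knockout was higher than wt for 33 of the 41 members, with a median of 0.14, while 53.8% of all genes lay above 0 with a median of 0.02. Gsta3 was 2.4-fold higher in the knockout and passed only with the replicate number as a block, which pairs mice that no label relates. Without the block 0 members passed, where 0.206% of all genes did, and with the replicate number as a block 1 did, where 0.503% of all genes did. At an unadjusted p under 0.05, 3 members passed without the block, where 2.99% of all genes did, and with it 11 were higher and 0 lower, where 4.55% and 3.83% of all genes were. Each knockout mouse was above the wt mouse of its number for 19 members and below it for 1, where 17% and 13% of all genes were. The lean stayed under the other scalings here, with 31 of 41 members above 0 after quantile normalization and 30 after normexp background correction. Its size rested partly on single arrays, with a median of 0.08 and 28 members above 0 without the calcitriol array of knockout mouse 1, and 0.24 and 37 without that of knockout mouse 2. Cell type markers differed here too. The stem marker sum was 5.43 to 5.98 in knockout and 5.02 to 5.18 in wt calcitriol cultures, with a median difference of 0.58 and no overlap. The goblet list had a median of -0.50, with sums of 7.09 to 7.62 in knockout and 7.13 to 8.0 in wt, and the enteroendocrine list 0.42, with sums of 4.60 to 5.77 in knockout and 3.81 to 5.17 in wt. The tuft list had 0.55 over the 4 tested, with sums of -2.59 to -2.13 in knockout and -2.84 to -2.65 in wt, and the same limit of dim markers. The part of these markers in the members' differences was not tested. These cultures are the calcitriol arrays already used within each genotype, so the values below are not separate evidence from the effects within wt mice.

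Gsta3 had 4.39, 3.07 and 3.58 in knockout calcitriol cultures, against 3.34, 2.04 and 1.85 in wt calcitriol cultures. Each knockout mouse was above the wt mouse of its number, while the groups overlapped because wt mouse 1 was above knockout mouse 2. The difference was 1.27 (SE 0.55, limma adjusted p = 1), and with the block it passed (SE 0.154, limma adjusted p = 0.0367). The blocked call ended without mouse 1 or 2 of either genotype, with adjusted p from 0.0849 to 0.124, and after quantile normalization (0.0530). The second Gsta3 probe gave 1.16 and did not pass over probes (limma adjusted p = 0.0807 with the block).

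Gpx2, the glutathione peroxidase of the gut epithelium, had 8.75, 8.52 and 8.44 in knockout calcitriol cultures, against 8.08, 8.32 and 8.34 in wt calcitriol cultures. The groups did not overlap, and the difference of 0.33 (SE 0.11) did not pass (limma adjusted p = 0.96, and 0.633 with the block). Its vehicle values were 8.57, 8.50 and 8.65 in knockout and 8.35, 8.40 and 8.53 in wt cultures, a difference of 0.15. Slc7a11, with the values above, differed by 0.82 without overlap and did not pass (limma adjusted p = 0.992, and 0.31 with the block). Sod1 had 7.50, 6.97 and 7.31 in knockout calcitriol cultures, against 6.98, 6.75 and 6.98 in wt calcitriol cultures, a difference of 0.35 (limma adjusted p = 1, and 0.379 with the block), and knockout mouse 2 lay among the wt mice. Groups did not overlap for 4 members, all higher in the knockout, where 3.98% of all genes were higher and 3.63% lower, and the other 2 were G6pdx and Pgd, which both feed the NADPH pool.

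The standard genes in calcitriol cultures differed, knockout minus wt, by 0.66 for Nqo1, 0.68 for Gclc, 0.43 for Gclm, 0.44 for Hmox1, 0.29 for Srxn1, 0.19 for Txnrd1, 0.13 for Keap1 and 0.05 for Nfe2l2. None passed, and the smallest blocked limma adjusted p among them was 0.514, for Nqo1.

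Many members differed between mice of the same genotype. In a limma F test for differences among mice of a genotype, chosen after the data were seen, 22 of the 41 members passed, where 20.8% of all genes did. The spread itself was no wider than usual, with a median SD between mice of 0.244 for members and 0.248 for all genes. For 19 of the 41 members the SD was over the median of all genes. Cbr3 had mouse means of 6.15, 3.86 and 3.06 in knockout and 6.51, 3.88 and 4.78 in wt organoids (limma adjusted p = 7.94e-05), a range of over 2 on the log2 scale within each genotype. Nqo1 had mouse means of 2.52, 1.16 and 2.47 in knockout and 2.14, 1.23 and 1.29 in wt organoids (limma adjusted p = 0.00066). Mouse 1 was the highest of each genotype for Cbr3 and Nqo1, and knockout mouse 3 stood close to mouse 1 for Nqo1 but lowest for Cbr3.

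Mouse 1 was the highest in both genotypes for 16 of the 41 members, where 17.5% of all genes were, and mouse 2 the lowest in both for 19, where 15.1% were. All 5 detoxifying enzymes passed the F test among mice, as did 6 of the 8 transferases and 3 of the 4 genes of glutathione synthesis and supply, but 0 of the 4 glutathione peroxidases. Slc7a11 had another order, with -0.10, 0.01 and 0.69 in knockout and -0.74, -0.16 and -0.62 in wt organoids, so knockout mouse 3 was highest. Hmox1, with 3.12, 2.82 and 3.60 in knockout and 2.83, 3.05 and 2.66 in wt organoids, was also highest in knockout mouse 3. The count of members passing the F test fell to 8 with each array scaled to its median or without mouse 1 of both genotypes, and to 9 without mouse 2. It rose without mouse 3. The shares of all genes in these fits are not given here, so the changes cannot be read as particular to the members. Mouse 2 was older than the others in both genotypes, and its arrays were also the only ones where the Y-linked gene Ddx3y lay far above its level elsewhere. Age, sex, the mouse and its culture cannot be told apart.

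**Figure D4:**
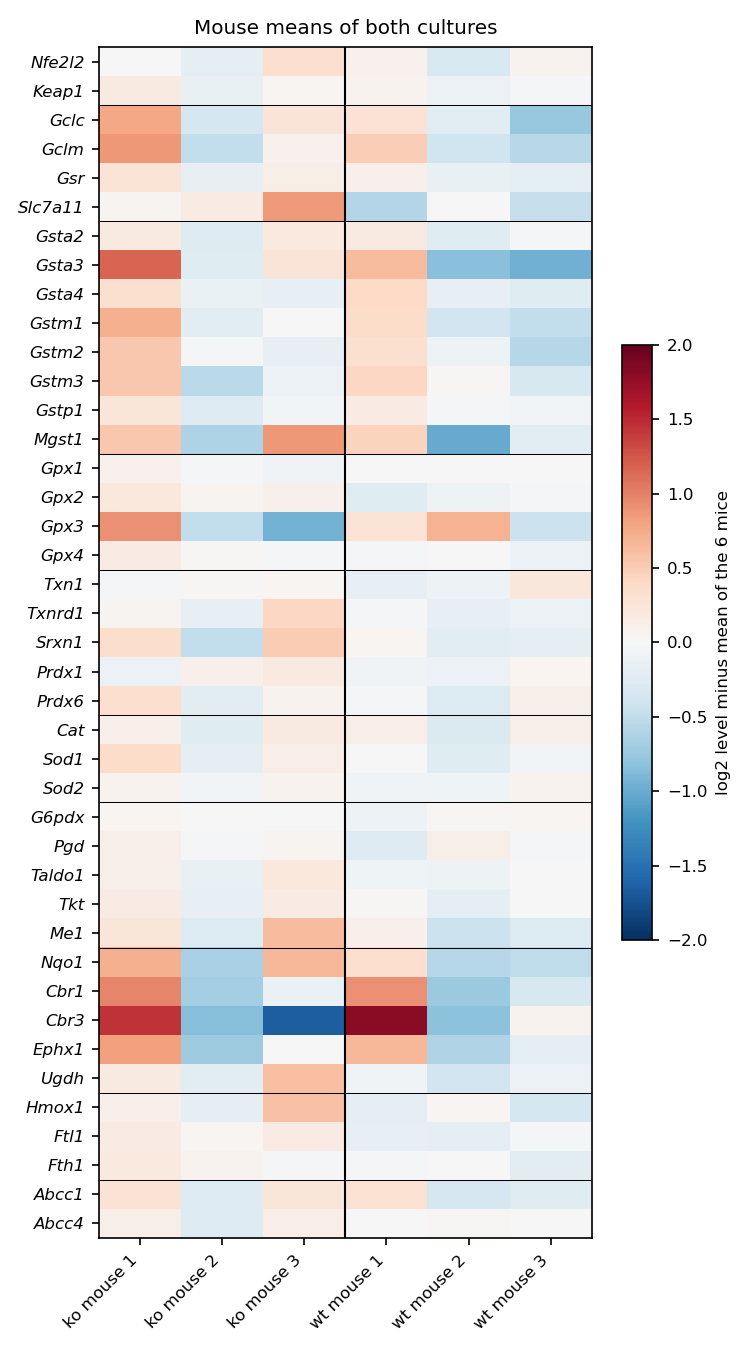
Mean log2 level of the 2 cultures of each mouse (columns, knockout left and wild type right) minus the mean of the 6 mice, for each member (rows, grouped by role), in red where higher and blue where lower on a scale that ends at 2. Mouse 1 of both genotypes is red for most transferases and detoxifying enzymes, and mouse 2 is blue for most of them.

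Other genes of the pathway were taken from 5 lists of 119 genes, of which 105 were measured and tested. In wt cultures 75 of them lay below 0 and 30 above after calcitriol, where 43.7% of all genes lay above. Their median was -0.06, against -0.03 for all genes. Without the block none passed, where 0.157% of all genes did. With the mouse as a block 3 passed as higher and 1 as lower, where 0.936% of all genes passed in either direction. The higher ones were Ugt2b35, Hagh, a glyoxalase, and Bach1, a repressor that competes with Nrf2 for its sites, and the lower one was Pir. In knockout cultures 0 passed in either fit, where 0% of all genes did, with 4 of 105 at an unadjusted p under 0.05 in limma with the block, where 8.11% of all genes had one. For the difference of effects, wt minus knockout, 45 of the 105 lay above 0, where 41.1% of all genes did. Ugt2b35 alone passed there with the block, where 0.235% of all genes did. In vehicle cultures 66 lay higher in knockout than in wt, where 43.6% of all genes did. None of these passed in either fit, where 0.00412% of all genes did in both. In calcitriol cultures 76 of the 105 lay higher in knockout than in wt, where 53.8% of all genes did, with a median of 0.08. By list these were 18 of 18 thioredoxin and peroxidase genes (median 0.10), 26 of 34 glutathione genes (0.13), 10 of 13 NADPH genes (0.10), 8 of 13 regulators (0.05) and 14 of 27 other Nrf2 targets (0.0039). With the block 1 of them passed, Ugt2b35 as lower in the knockout, where 0.503% of all genes passed.

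Bach1, the heme-sensing repressor that competes with Nrf2 for antioxidant response elements, had 3.09, 2.95 and 2.83 in wt calcitriol cultures, against 2.57, 2.50 and 2.39 in wt vehicle cultures. All calcitriol values lay above all vehicle values, and the knockout cultures had 2.54, 2.46 and 2.43 with calcitriol, against 2.58, 2.34 and 2.56 with vehicle. Bach1 rose by 0.47 in wt cultures with the block (limma adjusted p = 0.0395, and 0.364 without it). Hagh, a glyoxalase that releases glutathione from its lactoyl adduct, had 3.83, 3.68 and 3.81 in wt calcitriol cultures, against 3.38, 3.17 and 3.25 in wt vehicle cultures, with no overlap. It rose by 0.50 with the block (limma adjusted p = 0.0313, and 0.285 without it). Pir, which encodes the iron-binding protein pirin, had 0.87, 0.48 and 0.54 in wt calcitriol cultures, against 1.70, 1.05 and 1.06 in wt vehicle cultures, with no overlap, and it fell by 0.64 with the block (limma adjusted p = 0.0248, and 0.988 without it). The blocked calls of Bach1, Hagh and Pir ended when any 1 wt mouse was left out, with adjusted p from 0.165 to 0.288 for Bach1, from 0.170 to 0.237 for Hagh and from 0.0855 to 0.199 for Pir. Hagh had 3.25, 3.07 and 3.25 in knockout calcitriol cultures, against 3.39, 3.10 and 3.12 in knockout vehicle cultures. Pir had 1.86, 0.82 and 1.71 there with calcitriol, against 1.94, 0.74 and 1.63 with vehicle. In the difference of effects, wt minus knockout, Bach1, Hagh and Pir did not pass in limma without or with the block.

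Ugt2b35, a UDP-glucuronosyltransferase gene, had the largest change of these. It had 1.65, 1.11 and 0.84 in wt calcitriol cultures, against -0.67, -2.03 and -2.99 in wt vehicle cultures, and -1.46, -2.03 and -2.58 in knockout calcitriol cultures, against -1.16, -1.72 and -2.98 in knockout vehicle cultures. The 3 wt calcitriol cultures stood above all 9 others, whose values overlapped among the groups. It rose by 3.09 in wt cultures with the block (SE 0.28, limma adjusted p = 0.00275, and 0.0855 without it), and the call ended without wt mouse 2 (0.0737). The difference of effects, wt minus knockout, was 3.16 (limma adjusted p = 0.0294 with the block). Ugt2b genes are close in sequence, so the same limit on shared signal holds as for the transferases.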

How the data were processed

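RNA of 12 organoid cultures was hybridised with 1 dye to Agilent arrays. Per the file headers, Agilent Feature Extraction 11.5.1.1 made the deposited spot intensity, which is background-subtracted and not normalized between arrays, on a design whose positions use mm9. As deposited, each file further gives raw median intensity values for spots and for the local background around them, with flags for outlier, saturated and dim spots. Replicates were not pooled, and the number of arrays limits the precision.

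Control and outlier spots (113 to 195 per array) were left out, and 0 spots were saturated. Spots of a probe were averaged, log2 was taken, and each array was scaled to its 75th percentile (490.6 to 679.9 intensity units). Of 55681 probes, 28026 had a gene symbol through the RefSeq table and 27655 did not, and 163 with missing values were dropped. Probes had to be well above background on all 3 arrays of a group, and the brightest one stood for a gene. Probes without a symbol were kept under the transcript name given by the array, each such name counting as a gene. This left 24245 genes, while 21154 symbols were on the array before this filter. Shares and medians of all genes therefore include transcripts without a symbol. limma 3.58.1 in R 4.3.3 was fitted to group means over all 12 arrays with trended variance, with Benjamini-Hochberg adjustment over all genes. The fits were also run on data simulated from the means and variances of these arrays, with results not given here. An adjusted p under 0.05 passed.

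Each array label names a mouse number, and the design text names 3 mice per genotype. Arrays of the same mouse deviated together (correlations of 0.10 to 0.59), as did same-numbered arrays of the genotypes (0.13 to 0.64), so the mouse, or the number between genotypes, was also used as a block. In that block the same-numbered mice of the genotypes are not related by any label. No label gives an array's culture batch.

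Array values are given for members that passed in either fit, for the 4 smallest p of each comparison, and for 9 regulators and common Nrf2 targets. The members and lists were chosen with earlier results of these data known. Alternatives were other scalings, background, filters, probes, slides, arrays left out and variance models. Promoters are from RefSeq on GRCm38.p6. Probe sequences were not used here.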

Additional observations from a re-analysis of the deposited data

Results flagged for a closer look

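The calcitriol effect on Gsta3 differed between genotypes, with -0.97 on the log2 scale for wt minus knockout in the test of the difference itself (limma with the mouse as a block, adjusted p = 0.0351), and each of the 3 wt mice lay below each of the 3 knockout mice. The call was not made without the block (adjusted p = 1), was lost with it when any wt mouse or knockout mouse 1 or 2 was left out (0.0880 to 0.236), and was not made for the second probe (0.248, over probes). Gstm1 had a difference of effects of -0.57, with every wt mouse below 0 and every knockout mouse above 0. Keap1 had a difference of effects of -0.15, with every wt mouse slightly below 0 and every knockout mouse above 0, though by 0.01 in knockout mice 1 and 2. The sign patterns of Gstm1 and Keap1 were not tested as such, and 2.43% of all genes showed the same one.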

How the results depend on the processing

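With the mouse as a block, the count of members called was 1 instead of 0 in wt calcitriol against vehicle and in the difference of effects. With the replicate number as a block, it was 1 instead of 0 in calcitriol cultures of knockout against wt. The block changed no other count of members called. In wt cultures the blocked count was 1 without any wt mouse or knockout mouse 1 or 2, 4 without knockout mouse 3, and 2 with quantile normalization or normexp background correction. The share of all genes called moved as well, from 0.194% without wt mouse 2 to 1.49% without knockout mouse 3. It was 1.05% with quantile normalization and 1.08% with normexp. In the difference of effects the blocked count was 1 without knockout mouse 3, with quantile normalization and with normexp, where 0.256%, 0.252% and 0.297% of all genes were called. In calcitriol cultures it was 1 without wt mouse 3, without knockout mouse 3 and with normexp, where 1.74%, 1.84% and 0.499% of all genes were called. In the other blocked fits of these 2 comparisons Gsta3 did not pass. The blocked fits with mice left out or with another normalization were chosen after the data were seen.

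Scaling each array to its median gave medians of all genes of 0.48 in wt cultures, -0.26 in knockout cultures, 0.74 in the difference of effects and 0.73 in vehicle cultures. The member medians moved with them, to 0.43, -0.31, 0.69 and 0.93 in the same order, and kept their distance from all genes. The wt median was -0.16 after quantile normalization. The knockout median was -0.058 with the slide as a block and -0.065 on the largest slide, and the median difference of effects was 0.049 and 0.072 there. The vehicle median was 0.040 after quantile normalization, 0.045 after normexp, with or without the block, and 0.042 in the blocked fits without mouse 3. With arrays or mouse numbers left out, the medians ran from -0.15 to -0.010 in wt cultures, from -0.17 to 0.12 in knockout cultures, from -0.20 to 0.058 in the difference of effects, from 0.029 to 0.27 in vehicle cultures and from 0.080 to 0.24 in calcitriol cultures. Members called among mice were 8 when arrays were scaled to the median and between 8 and 28 without a mouse number. The shares of all genes in those fits are not given here. Of 63 named values, the sign changed in 23 with median scaling, 11 with the slide as a block, 10 on the largest slide, 4 with quantile normalization and 3 with normexp. Gsta3 kept its sign in wt cultures, in the difference of effects and in calcitriol cultures under every alternative run, but not its size, which was -1.51 to -0.45, -1.44 to -0.18 and 0.91 to 1.73 in that order. The cause of these differences was not tested. Dim probes limit Gpx3 most among the members, since it was not above background on every array.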
